A study of Homo sapiens with 5 samples.

Results

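The distal ACTL6A peaks without BRG1 were 10693 of the 23917 peaks called with an anti-ACTL6A antibody in SNU638, an established human gastric cancer cell line. They were chosen by a rule on peak positions. A peak was kept if it lay more than 1 kb from every 5′ end of a protein-coding transcript (TSS, GENCODE release 44) and shared no base with any peak of the BRG1, NRF2 or second IgG library, and the set was also read at a −log10 q of at least 3. Such regions are called BRG1-free below, which says only that the BRG1 library had no called peak there. CUT&Tag, which cuts and tags DNA next to a bound antibody with a tethered transposase, was made in SNU638 cells with no named treatment, in 1 library each for ACTL6A, BRG1 and NRF2 and in 2 libraries with normal IgG, here IgG 1 and IgG 2. No antibody had a replicate, so no difference below has a replicate check and none was tested. Intervals in brackets are 95% intervals (Wilson for shares, order statistics for medians) computed as if peaks were independent. They cover no error but that of counting.

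ACTL6A, also called BAF53A, is an actin-like protein that sits in several chromatin remodelling complexes. In the BAF complexes it accompanies the ATPase BRG1 (SMARCA4) or its paralogue BRM (SMARCA2), which slide or evict nucleosomes at enhancers and promoters. ACTL6A is also a subunit of the INO80 complex and of the TIP60 acetyltransferase complex, which do not contain BRG1. NRF2 is the transcription factor of the oxidative stress response and acts through antioxidant response elements (AREs).

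Of the 16671 ACTL6A peaks more than 1 kb from a TSS, 5590 overlapped a BRG1 peak and 388 of the others overlapped an NRF2 or IgG 2 peak, which left the 10693 BRG1-free peaks, 64.1% of the distal peaks. A −log10 q of at least 3 was held by 2177 of them, and by 49.8% of all ACTL6A peaks. That threshold is part of the rule, and both shares are given as a description. None of the 11 IgG 1 peaks overlapped a BRG1-free peak. The lists held 48793 BRG1 peaks, 9045 NRF2 peaks and 1746 IgG 2 peaks. For comparison, 5362 distal ACTL6A peaks overlapped BRG1 and no IgG 2 peak, and 859 ACTL6A peaks within 1 kb of a TSS overlapped no BRG1, NRF2 or IgG 2 peak.

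The highest BRG1-free peaks lay largely on simple or duplicated sequence, and the 6 with the highest −log10 q that could be printed are shown for that reason. The bases are the hg38 plus strand, 5′ to 3′, cut to 200 bases around the summit where the peak was longer. Capitals mark the 6-base word that covered most of the window in the first 5 sequences. In the sixth, and in the peak ranked 17 shown under it, capitals mark the bases that lie in stretches of at least 25 bases held by both peaks on either strand.
rank 1, chr9:89371889-89372040: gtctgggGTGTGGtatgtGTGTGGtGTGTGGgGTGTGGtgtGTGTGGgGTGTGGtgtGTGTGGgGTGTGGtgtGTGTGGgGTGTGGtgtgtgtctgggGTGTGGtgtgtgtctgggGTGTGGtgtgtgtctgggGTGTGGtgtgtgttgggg
rank 2, chr21:45500721-45500920: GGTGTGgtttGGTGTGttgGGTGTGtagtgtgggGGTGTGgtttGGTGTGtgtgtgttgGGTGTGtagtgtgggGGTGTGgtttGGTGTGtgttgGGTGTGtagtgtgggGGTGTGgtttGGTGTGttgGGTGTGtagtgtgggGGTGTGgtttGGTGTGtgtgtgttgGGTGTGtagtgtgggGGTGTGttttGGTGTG
rank 3, chr18:80258300-80258425: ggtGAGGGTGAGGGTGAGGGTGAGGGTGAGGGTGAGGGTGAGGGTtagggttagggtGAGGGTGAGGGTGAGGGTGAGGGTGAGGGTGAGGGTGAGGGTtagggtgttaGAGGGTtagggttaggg
rank 4, chr1:248408682-248408881: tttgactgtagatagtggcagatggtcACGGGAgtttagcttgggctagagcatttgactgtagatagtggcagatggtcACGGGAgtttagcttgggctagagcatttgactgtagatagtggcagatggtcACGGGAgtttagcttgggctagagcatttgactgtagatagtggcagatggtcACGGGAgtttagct
rank 5, chr19:18442067-18442266: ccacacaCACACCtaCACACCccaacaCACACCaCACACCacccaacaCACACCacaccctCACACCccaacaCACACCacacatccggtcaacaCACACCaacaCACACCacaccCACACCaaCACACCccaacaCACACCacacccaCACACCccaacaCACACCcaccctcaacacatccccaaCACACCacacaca
rank 6, chr21:10274092-10274251: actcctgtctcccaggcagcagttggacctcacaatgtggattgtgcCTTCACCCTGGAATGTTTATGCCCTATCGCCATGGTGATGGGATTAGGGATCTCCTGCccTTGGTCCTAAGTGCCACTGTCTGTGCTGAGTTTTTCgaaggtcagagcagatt
rank 17, chr22:18890930-18891079: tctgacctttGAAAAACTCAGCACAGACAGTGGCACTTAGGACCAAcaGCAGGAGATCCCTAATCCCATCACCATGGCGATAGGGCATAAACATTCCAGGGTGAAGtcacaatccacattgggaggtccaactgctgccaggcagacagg

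The first of these, with 127 fragments at its summit against 4.19 expected and a −log10 q of 131.2, lay in an intron of SEMA4D, which encodes a semaphorin, and 96.0% of the 200 bases around its summit were G or T. The second (52 fragments) lay where COL18A1 and SLC19A1, the reduced folate carrier gene, overlap, in introns of both, and 97.5% of its bases were G or T. The third (47 fragments) lay between genes 114941 bp from the end of chromosome 18 and ran in TTAGGG, the repeat of human telomeres, and its variant GAGGGT. The fourth (42 fragments) lay in a repeat with a unit of 53 bp, 5734 bp from the TSS of the olfactory receptor gene OR2T1. The fifth (41 fragments) was 96.0% A or C and lay 4000 bp from the TSS of ISYNA1, which encodes inositol-3-phosphate synthase.

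The sixth (30 fragments) was no simple repeat. It shared 94 bases in long stretches with the peak of rank 17 (27 fragments), which holds them in reverse orientation inside the lncRNA gene FAM230F. The peak of rank 13 (45 fragments), inside FAM230C, also held 6 of the 25-base words of the sixth. These 3 peaks thus carried related duplicated sequence on chromosomes 21, 22 and 13.

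A second kind of repeat is shown by the peak of rank 7, where capitals mark GGAAT on either strand, the unit of human satellites 2 and 3.
rank 7, chr16:34085165-34085331: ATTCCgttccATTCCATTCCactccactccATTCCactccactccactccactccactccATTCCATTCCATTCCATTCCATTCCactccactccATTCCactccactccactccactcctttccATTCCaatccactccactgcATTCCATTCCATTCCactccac
It had 24 fragments, and the 31 bases at its summit occurred 45 times in hg38. The peaks of rank 11 on chromosome Y (21 fragments) and rank 20 on chromosome 22 (25 fragments) held the same unit, with 94 and 95 copies of their summit bases.

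Among the 20 peaks with the highest −log10 q (19.92 to 131.2), 9 were GT-rich or AC-rich, meaning that at least 80% of the 200 bases around the summit were G and T or A and C. Of the same 20, 9 were tandem repeats, in which at least 70% of bases matched the base 1 repeat unit away in the 300 bases around the summit. GGAAT was repeated in 3 and TTAGGG in 1, and only 4 fell in none of these 4 classes. In 12 of the 20 the 31 bases at the summit occurred more than 1 time in the genome, and 7 lay within 2 Mb of a chromosome end. In 6 of the 20 a BRG1 peak lay within 1 kb. The classes and their limits were set after the sequences had been seen.

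The other top peaks lay in or near genes of diverse function. Inside introns were those of TNS1 (tensin 1, rank 8, 34 fragments), ULK1 (an autophagy kinase, rank 9, 38 fragments), SLC16A3 (the lactate transporter MCT4, rank 14, 38 fragments), LGR6 (a receptor of Wnt-enhancing R-spondins, rank 15, 32 fragments) and CDHR2 (a cadherin of the intestinal brush border, rank 18, 27 fragments). Outside genes, the nearest protein-coding TSS was that of CCND2 (cyclin D2, rank 10, 26 fragments, 25846 bp away), MRPL23 (a mitochondrial ribosomal protein, rank 12, 29 fragments, 7392 bp away), SALL3 (a zinc finger factor, rank 16, 21 fragments, 741278 bp away) or STK25 (a kinase, rank 19, 26 fragments, 7330 bp away). All 9 of these had a tandem share of at least 57.9%.

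Most BRG1-free peaks were far weaker than these. The number of fragments at a summit and the number expected were recovered from the deposited fold enrichment and Poisson p, and this worked for all 10693. The median was 4 fragments (range 3 to 127) against a median of 0.225 expected. Exactly 3 fragments stood behind 3397 peaks (31.8%), 4 behind 3268 (30.6%) and 5 behind 1820 (17.02%), so 79.4% had 3 to 5. Only 357 (3.34%) had 10 or more. Distal ACTL6A peaks with BRG1 had a median of 7 fragments (7 to 8), and TSS peaks without BRG1 a median of 5 (5 to 5).

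The width followed the same order. BRG1-free peaks were 176 bp wide at the median (175 to 177), against 228 bp (224 to 232) for distal peaks with BRG1. The mean widths were 196.6 and 269.1 bp. Weighted to the fragment numbers of the BRG1-free peaks, the mean of those with BRG1 was 210.5 bp, so most of that gap was gone. The weakest peak, in an intron of TNS1 (chr2:218024528-218024658), had a −log10 q of 1.305 and 6 fragments. The peak just inside a −log10 q of 3 (3.007, chr9:63046492-63046811) had 12 fragments on a background of 2.20, and the one just outside (2.998) had 11 on 1.85. At the distance limit, the nearest BRG1-free peak lay 1004 bp from a TSS, that of SLIT1, and the farthest peak left out lay 1000 bp from that of E2F1.

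The share of distal ACTL6A peaks without a BRG1 peak fell with the ACTL6A signal. Over distal peaks that overlapped no IgG 2 peak, 94.1% (93.3 to 94.8) of those with 3 fragments had no BRG1 peak. The share was 72.2% (70.4 to 73.9) at 5 fragments, 46.0% (43.1 to 49.0) at 7 and 22.1% (18.3 to 26.4) at 10. Above that it levelled off, at 15.9% to 19.9% from 11 fragments upward. The number of fragments thus moved with BRG1 overlap. Values "at like fragment numbers" below are those of BRG1-bound peaks weighted to the fragment numbers of the BRG1-free peaks. Peaks of 10 or more fragments were pooled for this and not matched further. Contrasts given without such a value are not matched.

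A typical BRG1-free peak carried no simple repeat. The one at the middle of the ranking among printable peaks (rank 5344, −log10 q 2.29, 5 fragments against 0.412 expected) is shown to set against the top peaks, with its CpG dinucleotides in capitals. It lay in an intron of MAMDC2 and in its antisense lncRNA gene MAMDC2-AS1, 1167 bp from the MAMDC2 TSS, and 213683 bp from the nearest BRG1 peak.
rank 5344, chr9:70045003-70045167: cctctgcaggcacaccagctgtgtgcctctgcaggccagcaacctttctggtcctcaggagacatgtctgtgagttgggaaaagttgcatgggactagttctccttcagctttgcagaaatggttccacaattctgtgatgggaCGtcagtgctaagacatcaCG

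The share of peaks on repeats rose with the signal. Tandem repeats made up 0.736% (0.499 to 1.08) of BRG1-free peaks with 3 fragments, 10.8% (8.86 to 13.0) of those with 7 to 9 and 27.1% (18.1 to 38.5) of those with 20 or more. GT-rich or AC-rich windows rose from 0.236% (0.119 to 0.464) to 25.7% (16.9 to 37.0) over the same range. In distal peaks with BRG1 the GT-rich or AC-rich share at 20 or more fragments was 4.08% (2.40 to 6.85), well under it. Their tandem share was 5.63% over all of them and 3.23% when weighted to the lower fragment numbers of the BRG1-free peaks. A higher tandem share at higher signal was thus not particular to the BRG1-free peaks. Any of the 4 repeat classes held 31 of the BRG1-free peaks with 3 fragments (0.913%) and 156 of the 357 with 10 or more (43.7%).

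Over the whole set, however, repeats were a minority. Tandem repeats were found at 344 of the 10693 summits (3.22%, 2.90 to 3.57), and in 0.973% of the windows placed 1 kb upstream or downstream. GT-rich or AC-rich windows were found at 248 summits (2.32%, 2.05 to 2.62) against 0.374% in those side windows. Distal peaks with BRG1 had 5.63% tandem repeats (3.23% at like fragment numbers) and 1.03% GT-rich or AC-rich windows (0.638% at like fragment numbers). BRG1-free peaks thus exceeded BRG1-bound ones in GT-rich or AC-rich sequence, and their tandem share was the lower without matching and alike with it.

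The IgG lists held the same classes. GT-rich or AC-rich windows made up 2.23% of all distal ACTL6A peaks, 0.366% of distal BRG1 peaks, 1.86% of distal NRF2 peaks and 3.55% of distal IgG 2 peaks. GGAAT repeats made up 0.624%, 0.155%, 3.32% and 7.28% in the same order. Of the 11 IgG 1 peaks, 8 held TTAGGG repeats and 6 were GT-rich or AC-rich. Peaks that IgG 2 shared had already been removed from the BRG1-free set, and the part of antibody-independent signal in the peaks that remained was not tested.

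Copies of the summit sequence told the strong peaks apart from the weak ones too. The 31 bases at the summit occurred more than 1 time in hg38 at 2028 BRG1-free peaks (18.97%, 18.2 to 19.7), against 18.4% (17.9 to 18.9) of the side windows and 18.9% of distal peaks with BRG1 (15.6% at like fragment numbers). The share was 19.1% at 3 fragments, 48.4% (42.7 to 54.2) at 10 to 19 and 67.1% (55.5 to 77.0) at 20 or more. From 3 to 20 or more fragments, the 75th percentile of copies rose from 1 to 15. It rose in distal peaks with BRG1 too, from 1 to 4. Summits with 100 or more copies, as in interspersed repeats, went the other way, from 6.83% (6.03 to 7.73) at 3 fragments to 0 of 70 at 20 or more (upper bound 5.20%). The authors kept uniquely mapped reads, and the share of reads this removed at such summits is unknown.

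**Figure D1:**
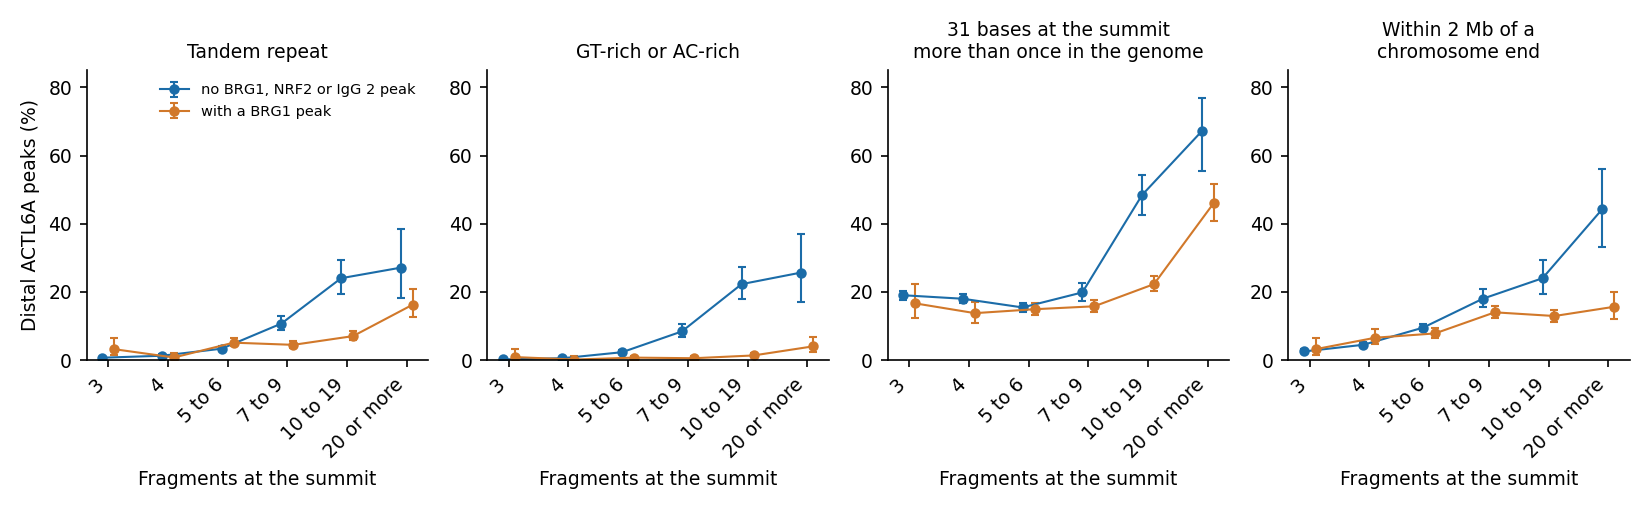
Percent of distal ACTL6A peaks (vertical) in 6 classes of fragments at the summit (horizontal), for peaks without a BRG1, NRF2 or IgG 2 peak (blue) and with BRG1 (orange), for tandem repeats, GT-rich or AC-rich windows, summits whose 31 bases occur more than 1 time in hg38, and summits within 2 Mb of a chromosome end, with 95% Wilson intervals. All 4 shares are highest in blue peaks of 20 or more fragments (27.1%, 25.7%, 67.1% and 44.3%).

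BRG1-free summits lay near chromosome ends more often than the genome does. Within 2 Mb of an end were 759 (7.10%, 6.63 to 7.60), against 2.80% of known bases. At 3 fragments the share was 2.56% (2.08 to 3.15), an interval that holds the genome's value, and at 20 or more it was 44.3% (33.3 to 55.9). Distal peaks with BRG1 had 11.1% there (6.56% at like fragment numbers), so the position was not particular to the BRG1-free ones.

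By gene annotation the BRG1-free peaks as a whole were more frequent in exons than the genome. They were slightly more frequent in protein-coding genes and slightly less so outside genes. Neither the weakest nor the strongest peaks stood apart from the genome-wide shares. Their summits lay in protein-coding genes in 47.3% (46.3 to 48.2), where 44.4% of known bases lie, in introns in 41.4% and in exons in 5.91% (5.48 to 6.37, genome 3.70%). Coding sequence held 3.10%. No annotated gene held 36.8% (35.9 to 37.7, genome 39.5%), and a noncoding gene alone held 15.97%. At 3 fragments the shares were 3.97% in exons (3.367 to 4.685), 44.1% in protein-coding genes (42.5 to 45.8) and 39.0% outside genes (37.4 to 40.7). At a −log10 q of at least 5 they were 2.91% (1.71 to 4.91), 41.2% (36.7 to 45.8) and 42.1% (37.6 to 46.7). All of these intervals held the genome's value. The genome's values count all known bases, also those within 1 kb of a TSS, where the rule allows no BRG1-free peak. Shares of the genome without those bases were not computed, so close values cannot be told apart here. Distal peaks with BRG1 had 39.8% in introns and 34.8% outside genes (34.3% at like fragment numbers).

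The clear difference from BRG1-bound peaks was at noncoding starts. Noncoding here means every transcript not typed as protein-coding, and such transcripts can belong to protein-coding genes. The part of those in the shares below was not counted. A 5′ end of a noncoding transcript lay within 1 kb of 9.68% (9.13 to 10.3) of BRG1-free peaks and 23.5% (22.4 to 24.7) of distal peaks with BRG1, or 15.1% of the latter at like fragment numbers. The median distance to a protein-coding TSS was 39096 bp (37386 to 40602) for the former and 19681 bp (18700 to 20709) for the latter. The latter gap varied with the fragment number. At 3 fragments the medians were 50255 bp (47262 to 54398) and 31100 bp (24498 to 36452), at 5 to 6 they were 28304 and 22003 bp, and at 7 to 9 they did not stand apart, at 16186 bp (14071 to 19562) and 16610 bp (14907 to 18233).

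A BRG1 peak within 10 kb was lacking in most cases, and the rule required only the lack of a shared base. No distance from side windows or random positions was computed to set against the distances below. The nearest BRG1 peak lay a median of 18830 bp away (18048 to 19677). It lay within 1 kb of 984 peaks (9.20%, 8.67 to 9.77), within 10 kb of 36.0% and within 100 kb of 81.2%, and 2 peaks touched a BRG1 peak end to end. The nearest NRF2 peak lay a median of 128487 bp away, in a list with fewer peaks, and within 1 kb of 1.41%. For the 2177 peaks with a −log10 q of at least 3, the BRG1 median was 13233 bp (11743 to 14735) and 13.6% (12.3 to 15.2) had a BRG1 peak within 1 kb, so the stronger BRG1-free peaks lay closer to BRG1. The TSS peaks without BRG1 were nearer still, with a median of 2359 bp and 42.1% within 1 kb.

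The base composition at BRG1-free summits rose above that of the surrounding DNA. The median share of G and C in 200 bp was 55.5% (55.5 to 55.5) at the summit and 45.5% (45.3 to 45.5) in the side windows. In distal peaks with BRG1 these medians were 59.0% (58.5 to 59.0) and 48.8%. The mean at the summit was 55.3% in BRG1-free peaks and 57.9% in those with BRG1, or 56.0% at like fragment numbers, so most of that gap was gone with matching. CpG dinucleotides, the targets of DNA methylation, averaged 3.57 per 200 bp at BRG1-free summits and 2.82 at the sides, and 6.32 at summits with BRG1 (5.00 at like fragment numbers). BRG1-free peaks were therefore GC-rich without the same gain in CpG. How GC content affects recovery in these libraries was not tested.

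Binding motifs differed clearly between BRG1-free and BRG1-bound peaks. AP-1 (TGANTCA), the site of FOS and JUN and a mark of active enhancers, was found in 528 BRG1-free summit windows (4.94%, 4.54 to 5.37) and in 5.48% (5.19 to 5.80) of side windows, so it was not more frequent at the summit. In distal peaks with BRG1 it was found in 19.6% of summits and 5.02% of side windows. Matched on fragment numbers, the BRG1-bound share was 16.8%, still far above that of the BRG1-free peaks. SP/KLF (GGGCGG) was found in 7.20% of BRG1-free summits and 5.20% of side windows, against 20.6% of summits with BRG1 (12.8% at like fragment numbers).

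CTCF, the architectural protein of loop anchors, gave the largest ratio of summit to side windows among the motifs that were more frequent at BRG1-free summits. Its motif was found at 78 summits (0.729%, 0.585 to 0.909) against 0.145% (0.102 to 0.206) of side windows, and at 1.42% of the 2177 peaks with a −log10 q of at least 3. Among distal peaks with BRG1 it was at 4.42% (3.42% at like fragment numbers). The BRG1-free peak with the CTCF motif and the highest −log10 q outside tandem repeats is shown with the match in capitals. It had 12 fragments and lay in an intron of TBC1D16, 218 bp from a BRG1 peak.
rank 85, chr17:79991761-79991960: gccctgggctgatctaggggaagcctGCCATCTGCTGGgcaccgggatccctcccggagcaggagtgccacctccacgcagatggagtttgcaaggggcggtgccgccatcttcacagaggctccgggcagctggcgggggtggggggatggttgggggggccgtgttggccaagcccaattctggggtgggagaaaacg

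Of the 16 motifs searched on both strands, 4 were more frequent at BRG1-free summits than at their sides with intervals that did not overlap, 4 were less frequent, and 8 had overlapping intervals. The more frequent ones were CTCF, SP/KLF, the ARE of NRF2 (8.83% against 6.999%, pattern TGACNNNGC) and the E-box (3.80% against 2.70%, pattern CACGTG). The ARE and AP-1 patterns can match the same bases. At a −log10 q of at least 3, CTCF and the E-box still stood apart from the side windows, while the intervals of the ARE (7.83 to 10.2 against 6.32 to 7.84) and SP/KLF (6.71 to 8.96 against 5.84 to 7.31) overlapped. The less frequent ones were the sites of the GATA factors (4.13% against 11.1%), YY1 (3.29% against 4.06%), the intestinal factor CDX (1.45% against 3.03%) and HNF1 (0.112% against 0.477%). The letters searched for these were AGATAA for the GATA factors, AAGATGG for YY1, TTTATGG for CDX and GTTAATNAT for HNF1. Most of these words are AT-rich and the summits are GC-richer than their sides, and the part of base composition in these differences was not tested. Among the more frequent ones, GGGCGG and CACGTG are GC-rich, and the part of base composition in the higher shares was not tested either. The intervals of TEAD, FOX, HNF4, ETS, RUNX, NRF1, CRE and AP-1 overlapped those of the side windows. Their letters were GGAATG for TEAD, TGTTTAC for FOX, CAAAGTCCA for HNF4, CCGGAAG for the ETS family, TGTGGTT for RUNX, GCGCATGC for NRF1 and TGACGTCA for CRE. The motifs that were more or less frequent at BRG1-free summits went the same way in distal peaks with BRG1. There the ARE was in 11.9% of summits (11.3% at like fragment numbers) and 7.51% of side windows. The E-box was in 5.05% and 3.155%, and GATA in 3.82% and 9.185%. These directions were thus not particular to the BRG1-free peaks. A match is a description of letters, not a bound site.

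The BRG1-free peaks covered all 24 chromosomes at 3.64 per Mb of known sequence. The density was highest on chromosomes 17 (5.91 per Mb), 11 (5.78), 22 (5.67) and 19 (5.22) and lowest on X (1.00). There were 1.99 BRG1-free peaks for each distal peak with BRG1 genome-wide, but 0.711 on chromosome 19 and 3.50 on chromosome 4. Chromosome 19, the most gene-dense, was the only one with fewer BRG1-free than BRG1-bound distal peaks.

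Few of them were clustered. Another BRG1-free peak lay within 10 kb of 1096 (10.3%), and 41 runs of 3 or more held 142 peaks (1.33%). The largest run, 11 peaks on chrY:56674685-56719700, consisted of summits whose 31 bases all occurred more than 1 time in the genome. The next, 7 peaks on chr2:3278425-3315015, lay in EIPR1, which encodes a partner of the endosome-associated recycling complex, with 1 multicopy and 2 tandem repeat summits.

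The genes that held the most BRG1-free peaks were mostly long. DLG2, a synaptic scaffold gene of 2173 kb, and PTPRN2, a phosphatase-like gene of dense core vesicles of 1049 kb, held 12 each. HDAC4, a class IIa histone deacetylase gene of 353 kb, GSE1, a gene of a co-repressor complex (507 kb), and CAMTA1, a transcription factor gene (984 kb), held 10 each. Those of 8 peaks were ASIC2, EIPR1, MGAT4C, RBFOX3 and RPS6KA2. Per length, EIPR1 (4.24 per 100 kb) and HDAC4 (2.83 per 100 kb) were the densest of the 10 and DLG2 (0.552 per 100 kb) the least. A −log10 q of at least 3 was reached by 5 peaks of PTPRN2, 5 of HDAC4 and 0 of DLG2.

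Over all 20007 protein-coding genes, 25.6% had a BRG1-free peak in the gene or within 10 kb, and 6.67% had one with a −log10 q of at least 3. Of 28 genes of the BAF complexes, 8 had a peak (28.6%), 2 of them a stronger one. Of 31 genes of the INO80 and TIP60 complexes, 6 had a peak (19.4%), 1 of them a stronger one. Of 31 genes of glutathione metabolism and ferroptosis, the iron-dependent form of cell death that glutathione restrains, 6 had a peak (19.4%), 1 of them stronger. All 3 lists stood near the share over all genes.

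Within the BAF list, the stronger peaks lay in introns of ARID1B, an ARID subunit that is mutually exclusive with ARID1A (6 fragments, −log10 q 4.67, 33242 bp from the TSS), and BICRA, a subunit of the noncanonical BAF complex (5 fragments, 3.14). ARID1B held 4 peaks in its 435 kb. SMARCA2, the gene of the alternative ATPase BRM, held 2 peaks of 3 and 4 fragments. In the INO80 and TIP60 list the stronger peak lay 4808 bp from the TSS of MRGBP, a TIP60 subunit (14 fragments against 2.51 expected, 3.80), and TRRAP, the scaffold of TIP60, held 4 peaks of 3 to 5 fragments. SMARCA2 and TRRAP were named after their values had been seen.

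In the glutathione list the stronger peak lay in an exon of GPX2, a gastrointestinal glutathione peroxidase (chr14:64939039-64939438, 5 fragments against 0.210 expected, −log10 q 3.68). The summit lay 3526 bp from the GPX2 TSS and also within CHURC1, and the nearest BRG1 peak was 19541 bp away. GCLC and GCLM, the subunits of glutamate-cysteine ligase, SLC7A11, the cystine importer, and GPX4, the peroxidase that blocks ferroptosis, had 0 BRG1-free peaks within 10 kb. These 4 were named after their values had been seen. Most protein-coding genes had none either, as 25.6% had such a peak. The rule leaves out any ACTL6A peak within 1 kb of a TSS or on a BRG1 peak, so the count does not cover those. The paper reports an ACTL6A peak near the GCLC TSS that overlapped a BRG1 peak.

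The NRF2 pathway list had the highest share of the lists of ordinary gene length. Of its 27 genes, 13 had a BRG1-free peak (48.1%), though only 1, AKR1C1, had one with a −log10 q of at least 3 (3.70%). Over all protein-coding genes these shares were 25.6% and 6.67%, so the list stood above the first and below the second. The AKR1C1 peak lay in an exon of this aldo-keto reductase gene (6 fragments, −log10 q 5.02), and its summit bases occurred 3 times in the genome. The other peaks of the list had 3 to 7 fragments. NFE2L2, the gene of NRF2 itself, held 3 intronic peaks of 4, 4 and 6 fragments, and HMOX1, the heme oxygenase gene, held 1 exonic peak of 4. The HMOX1 peak lay 78 bp from a BRG1 peak, and that near MAFK, a small MAF partner of NRF2, 36 bp from one. TXNRD1, IDH1 and ME1 were counted through peaks whose summit bases occur 953, 1399 and 548 times in the genome. These 6 genes were named after their values had been seen. AKR1C1 and AKR1C2 shared 1 of the peaks, and the list's median gene length (29.9 kb) was near that of all genes (27.5 kb).

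Of 29 gastric and epithelial genes, 6 had a BRG1-free peak (20.7%), and 3 had a stronger one (10.3%). Over all protein-coding genes the shares were 25.6% and 6.67%. That in an intron of HNF4A, a transcription factor of the gut epithelium, had 10 fragments and a −log10 q of 6.07. It is shown because it too is a GT-rich repeat (88.5% G or T), with TGTGTG in capitals.
rank 212, chr20:44404865-44405064: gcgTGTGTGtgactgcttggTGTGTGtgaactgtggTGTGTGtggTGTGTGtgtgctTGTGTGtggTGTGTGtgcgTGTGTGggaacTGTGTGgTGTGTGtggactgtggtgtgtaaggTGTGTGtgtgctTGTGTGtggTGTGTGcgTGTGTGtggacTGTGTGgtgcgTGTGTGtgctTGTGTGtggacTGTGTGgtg
The peak 9637 bp from the TSS of MUC5AC, the main gastric mucin, was likewise 87.5% G and T or A and C (8 fragments, 3.42). The peak 9828 bp from the TSS of SOX2, inside the lncRNA gene SOX2-OT, had summit bases that occur 171713 times in the genome (7 fragments, 4.69). The 3 stronger peaks near these lineage genes thus all lay on simple or high-copy sequence.

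Of 28 very long genes, 24 had a BRG1-free peak (85.7%), but per length they had fewer than other genes, 1.77 per Mb with their 10 kb margins against 4.11 per Mb over all protein-coding genes. Those with a stronger peak included EYS (2), LRRC4C (2), PCDH15 (1) and AUTS2 (1). The AUTS2 peak was 81.0% G and T or A and C with 9 fragments, and the peaks of the other named genes had 5 fragments each.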

How the data were processed

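CUT&Tag libraries of SNU638 cells were sequenced as 150 bp paired ends, and 5 peak lists were deposited (hg38). The submitters' processing notes name fastp 0.23.0, FastQC, BWA, MACS2, deepTools and HOMER 4.11. The authors called peaks from uniquely mapped reads with MACS2 at a q-value threshold of 0.05. The control given to the caller is not given in the sources used here. The deposited lists hold a fold enrichment (a ratio to the expected signal), a −log10 p and a −log10 q, each made by the authors' peak caller. They also hold the authors' integer score, which was not used, and the offset of the summit.

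The lists hold no read totals. By the totals the study states, the ACTL6A library had fewer reads than the BRG1 library. The fragments k at a summit and the expected number were recovered as the pair that gives both the deposited fold, (k + 1)/(expected + 1), and the Poisson −log10 p within 0.001. If the caller counted single reads, k counts reads. Overlap meant at least 1 shared base. Summits were annotated with GENCODE release 44 on hg38. Motifs and composition were read in 200 bp at the summit and in windows 1 kb to either side. Tandem repeats were read in 300 bp with units of 1 to 120 bp, GGAAT classes needed 5 copies and TTAGGG classes 3, on either strand. Fragment-matched values weight BRG1-bound peaks to the fragment numbers of the BRG1-free ones, with peaks of 10 or more fragments pooled. Sequences were read with pysam 0.24.0 and intervals computed with SciPy 1.17.1 in Python 3.11.15; the routines were tested on simulated data.

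The peak set, gene lists, motifs and alternatives were chosen with earlier results of these data known. Genes and peaks are named by rule, the 20 highest −log10 q with the gene at the summit or the nearest TSS, the 10 genes with most peaks, list genes with a peak of −log10 q 3 or more, and sequences of the 6 highest; exceptions are marked, and some genes that meet the rule are not reported here. With 1 library per antibody no test was made. The alternatives were stricter q, a larger TSS distance, a 1 kb gap, other overlap, annotation or window, and omission of IgG 2.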

Additional observations from a re-analysis of the deposited data

How the results depend on the processing

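Of 48 alternative values for 10 measures, 28 stayed within the interval of the main value (within 1.5 times for the number of peaks). A −log10 q of at least 5 left 447 peaks and moved the medians to 9 fragments, 236 bp width and 12375 bp to BRG1, and the shares to 41.2% in protein-coding genes, 36.5% with more than 1 summit copy, 20.1% tandem, 3.36% AP-1 and 1.34% CTCF. At that threshold the interval of AP-1 (2.04 to 5.46) overlapped that of the side windows (4.30 to 7.36), as did that of CTCF (0.617 to 2.90 against 0.0619 to 0.818). At it the ARE (5.82% against 6.54%), SP/KLF (6.26% against 6.43%) and E-box (2.46% against 4.06%) were lower at summits than at their sides, with overlapping intervals. Beyond 5 kb from a TSS, 43.6% lay in protein-coding genes, the BRG1 distance was 21449 bp and G and C 55.0%. With no other peak within 1 kb, these became 23144 bp and 55.0%, and tandem repeats 2.89%. Whole peaks gave 55.9% G and C, and 100 bp windows 2.43% AP-1 and 0.449% CTCF. Tandem limits of 60% and 80%, chosen after seeing the data, gave 5.60% and 1.82%. Omitting IgG 2 (10738 peaks) moved no measure.

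No paired analysis was possible because ACTL6A, BRG1 and NRF2 were each profiled in a single library. The soft-masked share, at summits and over whole peaks, was not run, since the genome used marks no repeats; summit copies and tandem repeats took its place. Restricting the comparison to like fragment numbers cannot alter the BRG1-free peaks' own fragments, so it was applied to their contrasts. At 3 to 5 fragments a peak, a missing BRG1 peak cannot be told apart from a BRG1 signal under the caller's threshold.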
